A study of Mus musculus with 6 samples.

Results

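Salivary glands release a protein-rich fluid from acinar cells, which store their products in secretory granules. Serous acini, typical of the parotid gland, release amylase and other enzymes, mucous acini of the sublingual gland release mucins, and serous caps on mucous acini are called demilunes. Lacrimal and mammary glands are built on a related branching plan, and some of these secreted proteins are shared among such exocrine glands.

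The genes described are 10 genes tied to salivary secretion, taken from 22180 named genes measured in mammary tumours. They are Bpifa2, Pip, Prol1, Smr2, Smr3a, Amy1, Dcpp1, Dcpp2, Dcpp3 and Bhlha15. Each had 1 probe set carrying that symbol alone in the platform annotation, so no choice among probe sets arose. Bhlha15 encodes a transcription factor of secretory cells and is not itself secreted. The genes were chosen by their log2 levels in these same 6 arrays, with the wide spread between tumours and the genotype differences of several of them already known. Their values are therefore a description and carry no test.

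RNA came from PyMT+ breast tumours of 6 mice, 1 Affymetrix whole-transcript array per tumour, with 250 nanograms of total RNA per sample. All 6 mice carried PyMT, the polyoma virus middle T oncoprotein that drives mammary tumours. Of these, 3 were SG-/-, without serglycin, a proteoglycan of secretory granules, and 3 were SG+/-, heterozygous for it. No wild-type tumours were analysed here. The sources used here do not name the promoter behind PyMT, the strain or the age of the mice. The labels give each tumour its own number, taken here as 1 mouse each, and replicates are numbered in accession order. The values are log2 expression levels, in which a step of 1 is a doubling, and per-tumour values are listed in the order of replicates 1, 2 and 3.

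Array medians over 33793 probe sets ran from 6.50 to 6.73. Srgn, the serglycin gene, was 5.07, 5.04 and 4.89 in SG-/- tumours and 6.76, 6.43 and 6.35 in SG+/- tumours, so every SG-/- tumour lay below every SG+/- tumour. Of these 6 values 5, all but SG+/- replicate 1, lay at or below the level of silent genes defined next, which limits this check. The mean of 1390 olfactory and vomeronasal receptor genes, taken as silent in this tissue, was lowest in SG-/- replicate 1 and SG+/- replicate 1 (both 4.58) and highest in SG-/- replicate 3 (5.87). Their 95th percentile, between 6.42 and 8.04 by array, serves below as the level of silent genes. The means of all 14 luminal mammary epithelial genes, markers of the labelled tissue, lay above the dim level of the arrays, 6.09, and Krt8 ran from 12.06 to 12.32. Tumour pieces hold many cell types, and in such bulk samples fewer cells of a type and less RNA per cell cannot be told apart.

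The families within the set are close copies, which is why their upstream sequences are shown first. Each line gives the 250 bases before the RefSeq transcript start (GRCm38.p6, plus strand), and capitals mark bases that differ from a family member within the aligned stretch. Smr2 is at chr5:88086306-88086555 and Smr3a at chr5:88002275-88002524, and Dcpp1, Dcpp2 and Dcpp3 are at chr17:23880626-23880875, chr17:23898472-23898721 and chr17:23917208-23917457.
Smr2: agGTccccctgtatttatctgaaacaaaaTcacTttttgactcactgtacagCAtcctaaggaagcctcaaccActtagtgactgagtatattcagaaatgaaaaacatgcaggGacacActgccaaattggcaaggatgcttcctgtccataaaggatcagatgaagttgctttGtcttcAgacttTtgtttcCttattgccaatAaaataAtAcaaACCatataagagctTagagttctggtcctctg
Smr3a: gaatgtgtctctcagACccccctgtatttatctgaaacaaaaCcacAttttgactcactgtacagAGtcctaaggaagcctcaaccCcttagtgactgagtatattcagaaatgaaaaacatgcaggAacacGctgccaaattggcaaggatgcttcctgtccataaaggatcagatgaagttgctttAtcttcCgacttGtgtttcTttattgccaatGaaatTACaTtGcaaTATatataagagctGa
Dcpp1: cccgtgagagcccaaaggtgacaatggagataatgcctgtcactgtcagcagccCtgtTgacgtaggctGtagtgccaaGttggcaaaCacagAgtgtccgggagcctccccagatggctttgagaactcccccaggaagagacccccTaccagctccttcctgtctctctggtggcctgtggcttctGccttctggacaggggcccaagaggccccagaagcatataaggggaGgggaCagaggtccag
Dcpp2: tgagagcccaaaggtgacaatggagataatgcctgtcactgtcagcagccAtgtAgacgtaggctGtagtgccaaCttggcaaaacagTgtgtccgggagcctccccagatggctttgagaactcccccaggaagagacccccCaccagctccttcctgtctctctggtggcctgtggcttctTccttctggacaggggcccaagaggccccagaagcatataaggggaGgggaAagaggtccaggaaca
Dcpp3: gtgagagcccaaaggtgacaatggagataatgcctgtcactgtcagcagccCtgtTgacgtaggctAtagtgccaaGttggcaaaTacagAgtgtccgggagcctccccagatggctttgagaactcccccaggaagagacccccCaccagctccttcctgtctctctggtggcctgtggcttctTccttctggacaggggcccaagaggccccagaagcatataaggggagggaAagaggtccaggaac

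Over these windows Smr2 and Smr3a were identical at 214 of 234 aligned bases (91.5%). Dcpp1 matched Dcpp2 at 238 of 245 aligned bases (97.1%) and Dcpp3 at 241 of 246 (98.0%), and Dcpp2 matched Dcpp3 at 243 of 248 (98.0%). Basic helix-loop-helix factors such as the Bhlha15 product bind short sites called E-boxes, written CANNTG. This motif, which reads as CANNTG on both strands, stood once in the window of each of these 5 genes, and 66.2% of 32851 promoter windows hold it. In all 5 it was the variant CAGATG (either strand, a part of CANNTG), found in 14.4% of all windows. The windows of Bpifa2 and Pip and both windows of Amy1 held no CANNTG, and those of Prol1 and Bhlha15 held 1 and 3. These matches are letters in a window and not binding sites. Probe sequences were not used here, so whether the probe sets separate such similar genes was not tested, and the gene behind each Smr and Dcpp signal is uncertain.

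The members varied widely between tumours. The difference between the highest and the lowest array was at least 2 in 9 of the 10 members, against 2.71% of all genes, and at least 3 in 8 of them, against 0.478% of all genes. By this range Bpifa2 stood at rank 1 of 22180 genes, Dcpp2 at 3, Prol1 at 5, Dcpp1 at 6 and Dcpp3 at 8. Smr2, with a range of 2.10, and Bhlha15, with 0.82, varied least among the members.

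**Figure D1:**
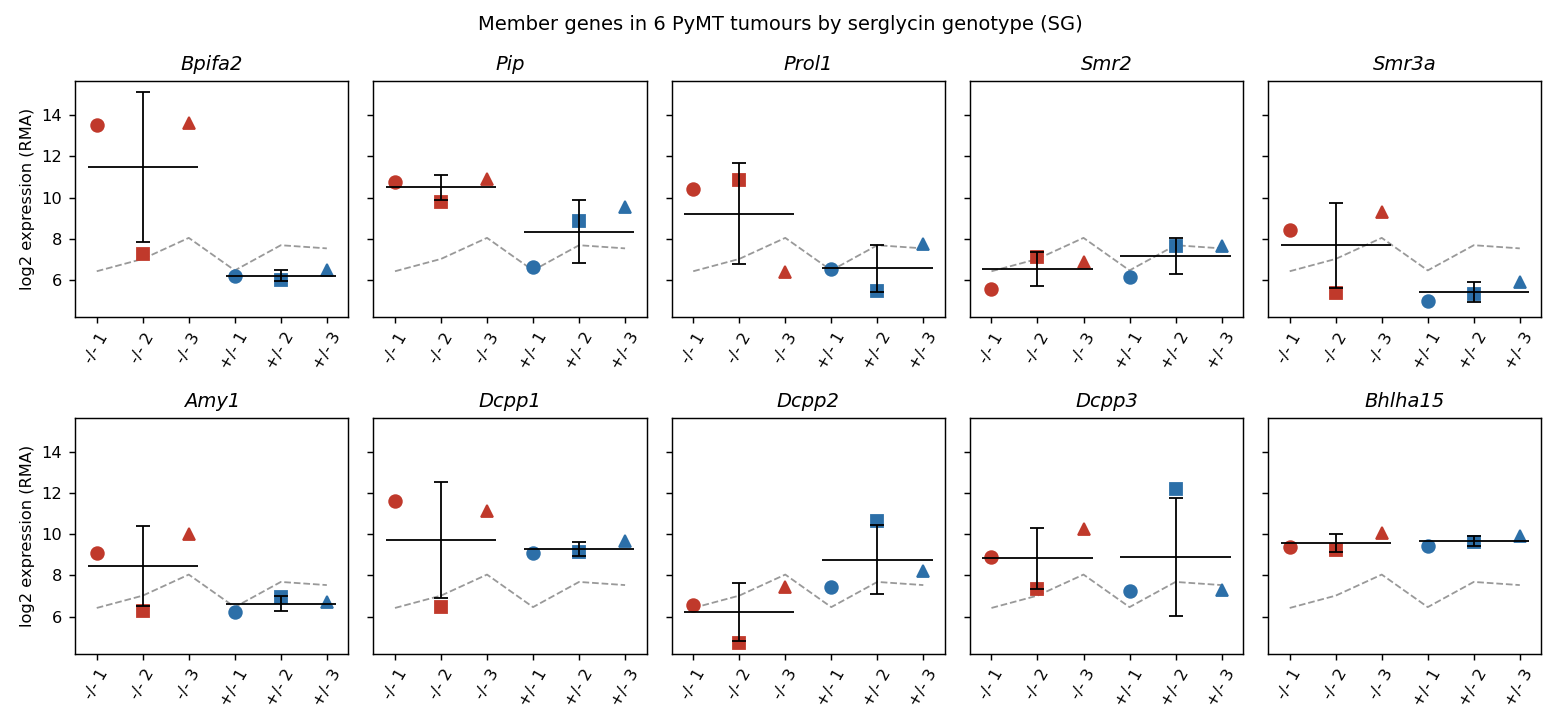
Log2 expression of the 10 members in each tumour, with SG-/- in red and SG+/- in blue. Horizontal lines with bars are group means ± SD (n = 3), and the dashed line is the 95th percentile of the silent receptor genes in each array. Bpifa2, Smr3a and Amy1 are high in SG-/- replicates 1 and 3, while Dcpp2 and Dcpp3 are highest in SG+/- replicate 2.

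Bpifa2 encodes the parotid secretory protein, a member of the BPI-fold family of lipid-binding and defence proteins. Its level was 13.54, 7.26 and 13.64 in SG-/- tumours and 6.18, 5.98 and 6.47 in SG+/- tumours. SG-/- replicates 1 and 3 were at least 6.28 above every other tumour, and SG-/- replicate 2 lay closer to the SG+/- tumours than to its own group. All 3 SG+/- values lay at or below the level of silent genes, so a difference against them may be understated.

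Amy1 encodes the amylase of saliva, which digests starch. Its level was 9.10, 6.29 and 10.03 in SG-/- tumours and 6.22, 6.94 and 6.74 in SG+/- tumours. The same 2 SG-/- tumours as for Bpifa2 stood apart, while SG-/- replicate 2 lay within the SG+/- range. Smr3a, an androgen-regulated product of the submaxillary gland, was 8.41, 5.36 and 9.30 in SG-/- tumours and 4.98, 5.32 and 5.92 in SG+/- tumours. It too was high in SG-/- replicates 1 and 3 and within the SG+/- range in SG-/- replicate 2.

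Bpifa2, Smr3a and Amy1 were thus high together, if high is taken as at least 2 above the gene's lowest array. Of all genes, 8 (0.0361%) were high in SG-/- replicates 1 and 3 and in no other array, and these 3 members were among them. The other genes of the 8 are named because the count is small, after their values were seen. They were Chia1, which encodes the acidic chitinase of stomach, lung and salivary gland, Cst10, a cystatin, Mup5, Fabp4, a fatty acid carrier of adipocytes, and 2310057J18Rik. Chia1 was 10.76, 5.47 and 10.64 in SG-/- tumours and 5.02, 6.06 and 6.04 in SG+/- tumours. Cst10 was 8.62, 4.96 and 9.46 in SG-/- tumours and 4.59, 5.31 and 5.29 in SG+/- tumours. Mup5 lay under the level of silent genes in SG-/- replicate 3. SG-/- replicates 1 and 3 had the lowest and the highest receptor mean of the 6 arrays, and the part of array quality in the pattern was not tested.

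Likeness was measured as the root mean square difference between the values of a pair of genes over the 6 arrays, each gene centred on its own mean. Amy1 and Smr3a, which lie on different chromosomes, differed by 0.33, the smallest value among all pairs of members. Around their own means they varied by 1.47 and 1.67. The genes closest to Smr3a were Cst10 (0.31), Amy1 (0.33) and Chia1 (0.84), and those closest to Amy1 were Smr3a, Cst10 (0.48) and Prb1 (0.70), a salivary proline-rich protein. The genes closest to Bpifa2 were Chia1 (1.13), Cst10 (1.56) and Smr3a (1.79). These distances are over 6 arrays that also share their overall signal spread, and they describe the tumours without showing a link between the genes.

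**Figure D2:**
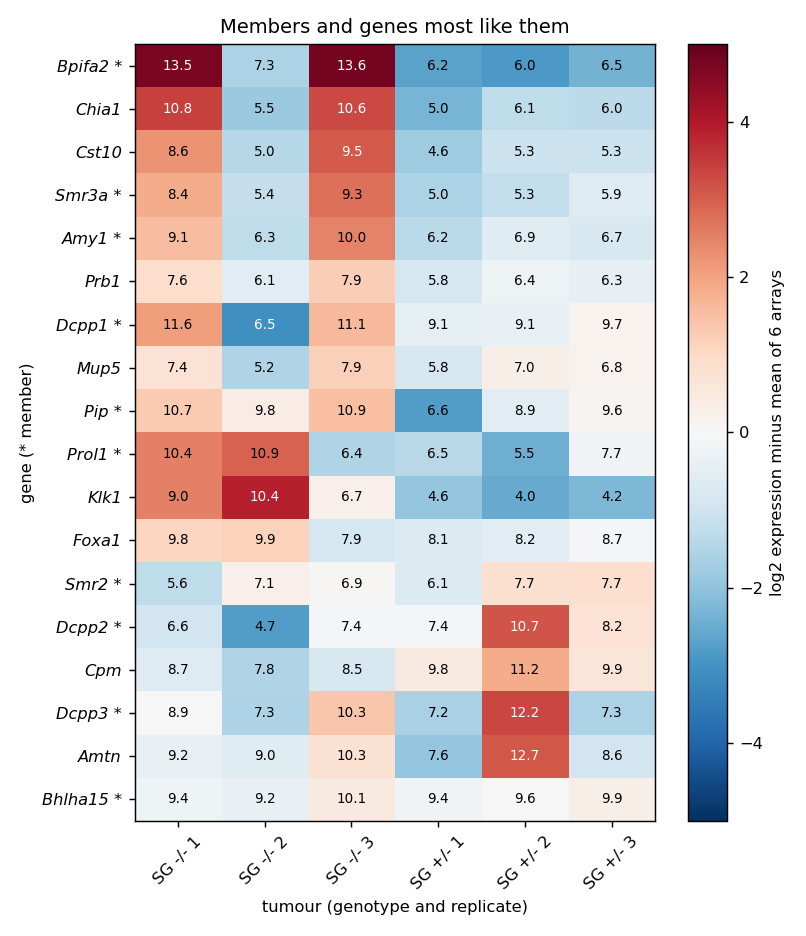
Members (asterisks) and genes most like them in the 6 tumours. Colour gives log2 expression minus the gene's mean over the arrays, and the numbers are the log2 levels. Genes from Bpifa2 to Prb1 are highest in SG-/- replicates 1 and 3, though Prb1 is not high in replicate 1 by the rule in the text. Prol1 and Klk1 are highest in SG-/- replicates 1 and 2, and Dcpp3 and Amtn are highest in SG+/- replicate 2.

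Dcpp1, Dcpp2 and Dcpp3 encode demilune cell and parotid proteins and are neighbours on chromosome 17. Dcpp1 was 11.59, 6.46 and 11.12 in SG-/- tumours and 9.08, 9.15 and 9.69 in SG+/- tumours. Its highest arrays were again SG-/- replicates 1 and 3, but its SG+/- values lay between these and SG-/- replicate 2, which was lowest and under the level of silent genes. By the rule above it was high in every array but SG-/- replicate 2, as were 2 of all genes (0.00902%).

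Dcpp2 was 6.55, 4.71 and 7.43 in SG-/- tumours and 7.43, 10.66 and 8.22 in SG+/- tumours. SG+/- replicate 2 was highest and SG-/- replicate 2 lowest, and the groups touched without overlap, with SG-/- replicate 3 and SG+/- replicate 1 both at 7.43. Dcpp3 was 8.90, 7.32 and 10.26 in SG-/- tumours and 7.23, 12.20 and 7.27 in SG+/- tumours. It was highest in SG+/- replicate 2 and next in SG-/- replicate 3, and the groups overlapped.

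SG-/- replicate 2 was the lowest array for Dcpp1 and Dcpp2 and close to the lowest for Dcpp3, while the highest array was SG-/- replicate 1 for Dcpp1 and SG+/- replicate 2 for the other two. Their upstream windows, shown above, were at least 97.1% identical. Dcpp2 and Dcpp3 differed by a root mean square of 1.44, and Dcpp1 differed from them by 2.04 and 2.03. The flanking genes Prss21 and Sbp had ranges of 0.31 and 0.41 over the 6 arrays. Both lay under the level of silent genes in every array, which limits a contrast with the Dcpp genes. The gene closest to Dcpp1 was Mup5 (0.91) and the gene closest to Dcpp2 was Cpm, a carboxypeptidase (0.85). The gene closest to Dcpp3 was Amtn (0.57), which encodes the enamel protein amelotin. Around their own means Dcpp1, Dcpp2 and Dcpp3 varied by 1.66, 1.79 and 1.86. Mup5 lay under the level of silent genes in every array but SG-/- replicate 1.

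Prol1, also called Muc10, encodes a mucin-type protein of the submandibular and lacrimal glands. Its level was 10.40, 10.86 and 6.40 in SG-/- tumours and 6.52, 5.46 and 7.74 in SG+/- tumours. It was highest in SG-/- replicates 1 and 2, and SG-/- replicate 3, where Bpifa2 was highest, lay within the SG+/- range and under the level of silent genes. The closest gene was Klk1 (1.20), a tissue kallikrein of salivary duct cells, followed by Foxa1 (1.27), a luminal mammary transcription factor, and Mir145a (1.32). Prol1 itself varied around its mean by 2.05. Klk1 was 9.02, 10.40 and 6.74 in SG-/- tumours and 4.58, 3.99 and 4.25 in SG+/- tumours. Its values in SG-/- replicate 3 and in every SG+/- tumour lay under the level of silent genes.

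Smr2, a further androgen-regulated submaxillary gland product, was 5.57, 7.10 and 6.89 in SG-/- tumours and 6.14, 7.65 and 7.67 in SG+/- tumours. Its lowest value was in SG-/- replicate 1, in which Smr3a was high, and 4 of its 6 values lay at or below the level of silent genes. Smr2 and Smr3a differed by a root mean square of 2.09, although their upstream windows are alike. Both lie on chromosome 5 between the caseins and the enamel protein genes, as does Prol1, and the neighbours are named here for their position. In that stretch 15 genes from Csn1s1 to Enam were measured, and of the 12 that are not members 1, Amtn, had a range of at least 2. Cabs1 lies between Smr3a and Csn3, the kappa-casein gene, which kept within 12.60 and 13.26. Gm7714 and Ambn, which flank Prol1 and Amtn, had ranges of 1.32 and 1.15. Cabs1, Gm7714 and Ambn lay under the level of silent genes in every array.

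**Figure D3:**
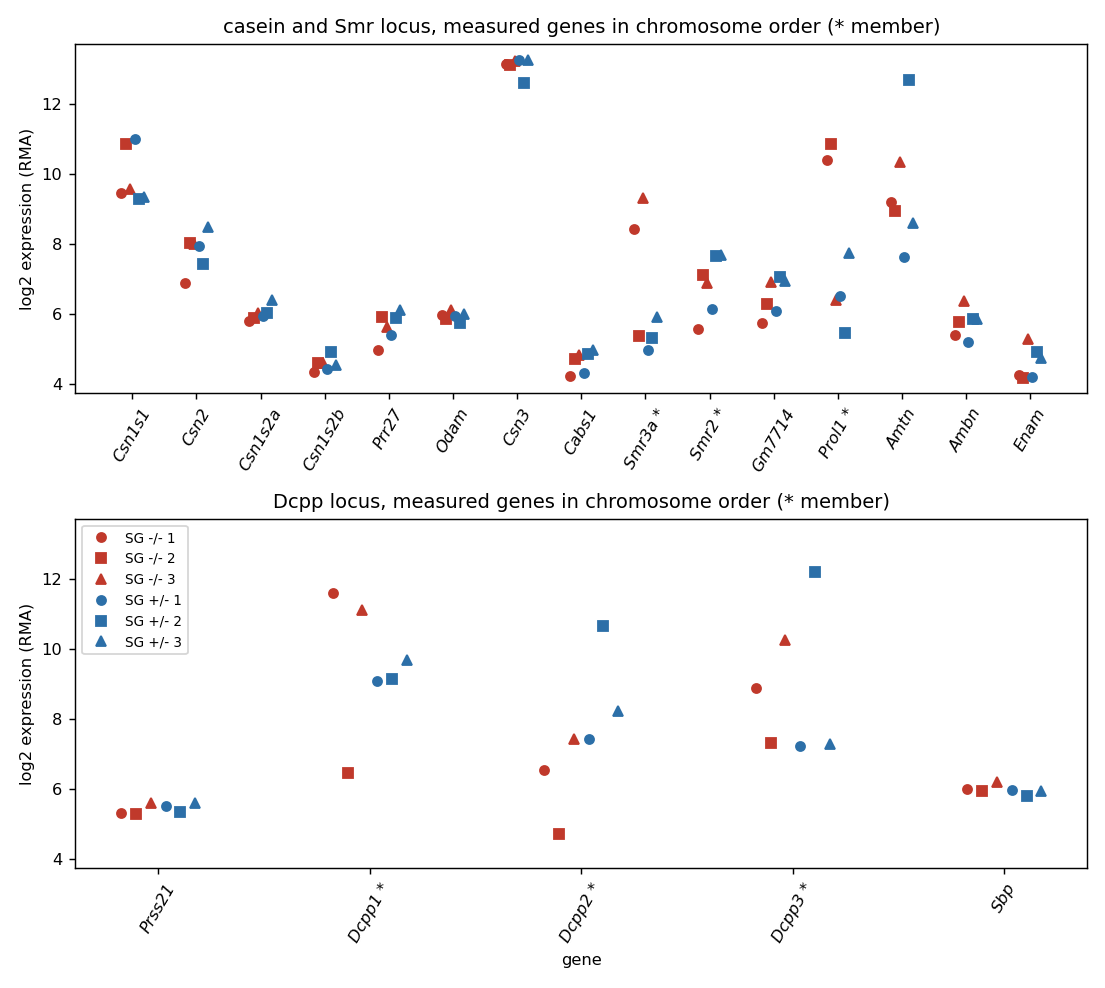
Log2 expression in each tumour of the measured genes of the casein and Smr stretch on chromosome 5 and of the Dcpp stretch on chromosome 17, in chromosome order and not to distance (asterisks mark members). Values spread widely in Smr3a, Prol1, Amtn and the 3 Dcpp genes, and Smr2, between Smr3a and Gm7714, has a range of 2.10. The flanking genes have ranges of 0.73 (Cabs1), 1.32 (Gm7714), 1.15 (Ambn), 0.31 (Prss21) and 0.41 (Sbp). These flanking genes lay under the level of silent genes in every array, so their small ranges are no contrast to the members.

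Pip encodes the prolactin-inducible protein, secreted by salivary, lacrimal and apocrine breast epithelium. It was 10.74, 9.81 and 10.92 in SG-/- tumours and 6.63, 8.87 and 9.55 in SG+/- tumours. All SG-/- values lay above all SG+/- values, and SG+/- replicate 1 was the lowest. The closest genes were Reg1 (0.90), Igh-VS107 (0.91) and the immunoglobulin joining chain Jchain (0.94). Pip itself varied around its mean by 1.43, and Reg1 lay under the level of silent genes in every array but SG-/- replicate 1. Its neighbours Sval2 and Sval1, both related secreted proteins, had ranges of 0.66 and 1.26, under the level of silent genes in every array.

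Bhlha15, also called Mist1, is a transcription factor that maintains the secretory machinery of acinar cells and is also made by plasma cells. Its level was 9.37, 9.24 and 10.06 in SG-/- tumours and 9.44, 9.60 and 9.91 in SG+/- tumours. The groups overlapped, and it was high in no array by the rule above, as were 97.3% of all genes. Thus Bhlha15 ranged over 0.82 while the secreted products ranged over 2.10 to 7.66.

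By tumour, the number of members at least 2 above their lowest array was 6 in SG-/- replicate 1, 2 in SG-/- replicate 2 and 7 in SG-/- replicate 3. It was 2, 5 and 5 in SG+/- replicates 1 to 3. These counts include Dcpp2 in SG-/- replicate 3 (7.43) and Smr2 in SG+/- replicate 2 (7.65). Both values lay under the level of silent genes of their array, 8.04 and 7.69. The share of all genes that were high was 0.316%, 0.284% and 1.96% in SG-/- tumours and 0.144%, 1.24% and 0.780% in SG+/- tumours. SG-/- replicates 1 and 3 were the highest 2 arrays for Bpifa2, Pip, Smr3a, Amy1 and Dcpp1, which is 5 of 10 members against 5.28% of all genes.

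The genotype difference, SG-/- minus SG+/-, was at least 1 in 5 of the 10 members, against 0.212% of all genes, and at most -1 in 1 member, Dcpp2, against 0.0992%. The series description reports mostly lower genes in SG-/- tumours. Here 47 of all genes were at least 1 higher and 22 at least 1 lower, but by any amount 10272 were higher and 11908 lower. The balance thus depends on the cutoff, and these counts are no check of that description. The 5 higher members were Bpifa2, Prol1, Smr3a, Pip and Amy1. Bpifa2 was 5.27 higher (standard error 1.6, 95% interval from 1.49 to 9.04), with means of 11.48 ± 3.65 in SG-/- and 6.21 ± 0.25 in SG+/- tumours (SD, n = 3 each). Prol1 was 2.65 higher (interval from -0.15 to 5.45), Smr3a 2.29 (0.09 to 4.48), Pip 2.14 (0.43 to 3.85) and Amy1 1.84 (-0.22 to 3.90).

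Dcpp2 differed by -2.54 (interval from -4.80 to -0.28), with a mean of 6.23 ± 1.39 without serglycin and 8.77 ± 1.68 in heterozygotes (SD, n = 3 each). Its values in SG-/- replicates 2 and 3 lay under the level of silent genes. The remaining differences were 0.42 for Dcpp1 (-2.53 to 3.37), -0.08 for Dcpp3 (-3.39 to 3.24), -0.64 for Smr2 (-1.90 to 0.63) and -0.09 for Bhlha15 (-0.67 to 0.49). The genotypes did not overlap for Bpifa2 and Pip on the higher side, against 2.84% of all genes, and for Dcpp2 on the lower side, against 3.19%. Nothing is read from these shares, since the members were chosen with this comparison known. Across the whole table of 22180 genes, 0 (0%) passed the limma threshold after adjustment, and 469 (2.11%) had an unadjusted p under 0.05. Srgn, with the smallest limma p, differed by -1.52 (standard error 0.15, limma adjusted p = 0.467). An exact two-sided permutation test of Srgn gave 0.1, the smallest p that 3 against 3 tumours allow.

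**Figure D4:**
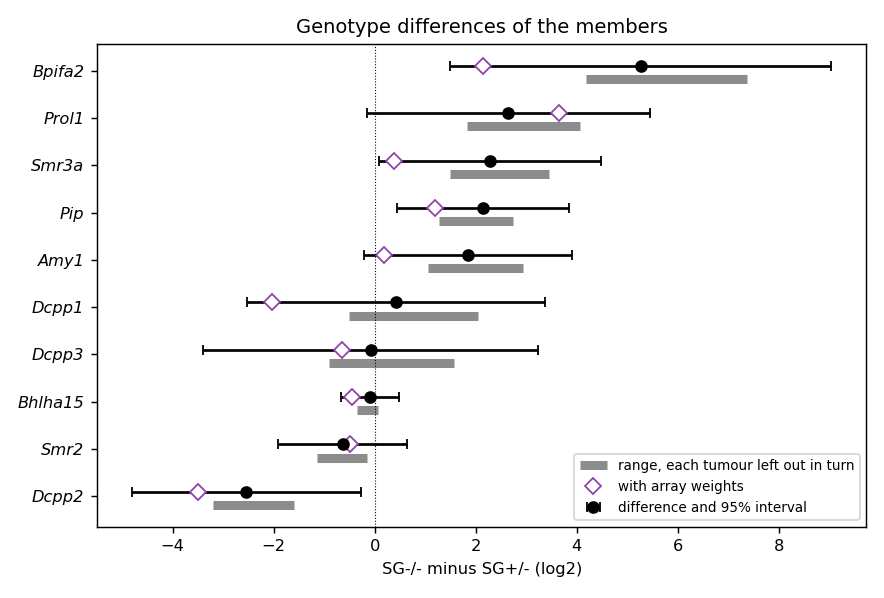
Genotype difference of each member on the log2 scale, with the 95% interval of the fit over all genes (black), the range when each tumour is left out in turn (grey) and the value with array weights (open diamonds). The values of Bpifa2, Smr3a, Amy1 and Dcpp1 move most with array weights, which give SG-/- replicate 2 the largest weight.

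The size of these differences moved when single tumours were left out. Without SG-/- replicate 2, Bpifa2 was 7.38 higher, Smr3a 3.45 and Amy1 2.93, and Dcpp1 was 2.05 higher. Without SG-/- replicate 3, Amy1 was 1.06 higher, Smr3a 1.48 and Prol1 4.06. Without SG+/- replicate 1, Pip was 1.28 higher, and without SG+/- replicate 2, Dcpp2 differed by -1.59 and Dcpp3 by 1.57. Dcpp1 changed direction without SG-/- replicate 1 (-0.51) or 3 (-0.28), and Dcpp3 did so without SG-/- replicate 2 (0.68) or SG+/- replicate 2. Bhlha15 stayed between -0.34 and 0.07 over these fits, on both sides of 0. With limma array weights, Bpifa2 was 2.15, Pip 1.20, Smr3a 0.37 and Amy1 0.18 higher, and Dcpp1 differed by -2.03. Under the same weights the differences of Prol1 (3.65) and Dcpp2 (-3.49) were larger than without them. Those of Smr2, Dcpp3 and Bhlha15 were -0.49, -0.65 and -0.46. These weights were 4.95 for SG-/- replicate 2, 0.96 for SG-/- replicate 1 and 0.20 for SG-/- replicate 3.

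Other secreted proteins of salivary glands were described from a list of 21 genes, of which 18 were measured. None passed the limma threshold over all genes (0 higher, 0 lower), 1 gene in each direction had an unadjusted p under 0.05, and the median difference was 0.08 against -0.01 over all genes. For 6 of the 18, SG-/- replicates 1 and 3 were the highest 2 arrays, against 5.28% of all genes. These were Car6, a secreted carbonic anhydrase, Lpo, which encodes lactoperoxidase, Prb1, Prpmp5, Cst10 and Dnase1, and those not met above are named after their values were seen. Prb1 was 7.56, 6.11 and 7.93 in SG-/- tumours and 5.83, 6.43 and 6.27 in SG+/- tumours. Dnase1, the secreted nuclease, was 7.47, 6.46 and 8.39 in SG-/- tumours and 6.58, 6.40 and 6.51 in SG+/- tumours. Car6 ranged over 0.72 and Lpo over 1.30. Prpmp5 lay under the level of silent genes in all 6 arrays. In SG-/- replicate 3, where that level was 8.04, Prb1 (7.93) and Lpo (7.94) lay under it too. Dmbt1, a mucosal scavenger receptor also made in salivary glands, had values of 4.58, 5.71 and 6.03 in SG-/- tumours. In SG+/- tumours it had 7.67, 7.12 and 7.51 (limma adjusted p = 1.00 for each gene of this list). All Dmbt1 values but that of SG+/- replicate 1 lay under the level of silent genes of their array.

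Of the genes for acinar secretion machinery and its regulators, 20 of 21 were measured. All 20 had a mean above the dim level, 0 were called by limma, and the median difference was -0.04. Aqp5, the water channel of acinar cells, was 12.34, 12.11 and 12.35 in SG-/- tumours and 12.40, 12.41 and 12.61 in SG+/- tumours. SG-/- replicates 1 and 3 were the highest 2 arrays for 1 of the 20 genes. The list held 1 gene with a range of at least 2, Atp2c2, a calcium and manganese pump of the secretory pathway, and it was highest in SG-/- replicate 1 (7.67) and lowest in SG+/- replicate 2 (5.52).

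Granular duct genes of the submandibular gland, mostly kallikreins, were measured for 14 of 19 entries, and 0 were called by limma. SG-/- replicates 1 and 3 were the highest 2 arrays for 0 of the 14. Of the 14, 5 had a mean above the dim level. Klk1 had the widest range (6.42) and is described above. Klk1b22 was highest in SG-/- replicate 2 (5.68) and lowest in SG-/- replicate 3 (3.37), under the level of silent genes in every array. In the BPIF family, 15 of 15 relatives of Bpifa2 were measured and 0 were called, and SG-/- replicates 1 and 3 were the highest 2 arrays for 0. Only 6 of the 15 had a mean above the dim level, so the dim ones say little about the pattern. The direct neighbours of Bpifa2 on chromosome 2, Bpifa6 and Bpifa3, ranged over 0.62 and 0.36. Both lay under the level of silent genes in every array. The family members Bpifb5 and Bpifb1 ranged over 3.25 and 3.24 and were highest in SG+/- replicate 2, at 10.94 and 9.69.

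Markers of other glands and cells were set beside the members. Among 12 milk genes 0 were called, the median difference was -0.01, and SG-/- replicates 1 and 3 were the highest 2 arrays for 1. Lalba, the milk protein alpha-lactalbumin, was lowest in SG+/- replicate 2 (9.83) and between 11.89 and 13.03 elsewhere. Among 9 measured genes of the casein and enamel stretch 0 were called, with a median difference of -0.04, and SG-/- replicates 1 and 3 were the highest 2 arrays for 0 of them. Of 11 lacrimal-associated genes 0 were called (median difference -0.02), 6 had a range of at least 2, and SG-/- replicates 1 and 3 were the highest 2 arrays for 2. Of 16 pancreatic acinar genes 0 were called (median difference 0.01), and those arrays were the highest 2 for 2. A mean above the dim level was found for 10 of the 12 milk genes and 4 of the 9 casein and enamel stretch genes. It was also found for 7 of the 11 lacrimal-associated and 8 of the 16 pancreatic genes, and the dim genes say little about the pattern. Amy2b, the neighbour and relative of Amy1, was 5.07, 6.10 and 6.84 in SG-/- tumours and 4.27, 6.89 and 6.97 in SG+/- tumours. Every one of these values lay under the level of silent genes of its array, so their order cannot be compared with that of Amy1.

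Plasma cell genes, relevant because these cells also make Bhlha15, had a median difference of 0.17 over 10 genes, and B cell and lymph node genes 0.30 over 9 genes, with 0 called in either list. SG-/- replicates 1 and 3 were the highest 2 arrays for 3 genes of each of these lists. The summed level was 79.1, 77.8 and 81.2 for plasma cell genes and 55.4, 53.2 and 59.8 for lymph node genes in SG-/- tumours. In SG+/- tumours it lay between 76.1 and 77.3 and between 52.5 and 53.5. These sums of log2 levels include dim genes, as 8 of 10 plasma cell and 5 of 9 lymph node genes had a mean above the dim level. SG-/- replicate 3, with the highest sums, also had the highest receptor mean (5.87). The part of these cells in the members' pattern was not tested.

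Skeletal muscle genes had summed levels of 93.4, 81.8 and 97.8 in SG-/- tumours and 93.9, 84.8 and 95.9 in SG+/- tumours over 13 genes, lowest in replicate 2 of each genotype. SG-/- replicates 1 and 3 were the highest 2 arrays for 4 of the 13, with 0 called and a median difference of -0.01. The part of muscle in the members' pattern was not tested. Myoepithelial genes had a median difference of 0.33 over 10 genes, skin genes 0.03 over 12 and luminal mammary genes 0.03 over 14, and 0 were called in each. For the luminal genes, SG-/- replicates 1 and 3 were the highest 2 arrays in 1 of 14, for the skin genes in 1 of 12 and for the myoepithelial genes in 0 of 10. Of the 12 skin genes, 6 had a mean above the dim level. By an unadjusted limma p under 0.05, which 2.11% of all genes had, 4 granular duct genes and 1 gene each of the acinar, BPIF, lacrimal, lymph node, luminal and myoepithelial lists passed. The milk, casein stretch, pancreatic, plasma cell, muscle and skin lists had 0 such genes. Over the 14 lists, limma called 0 of 174 distinct genes, and 12 (6.9%, against 2.11% of all genes) had an unadjusted p under 0.05, among them Klk1, Scgb2b26, Dmbt1 and Cxcl13, whose differences were known when the lists were written.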

How the data were processed

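The deposited log2 values, 1 per probe set and array, are the authors' output of RMA (robust multi-array average), per the series design text. The submitters' processing notes list Affymetrix Expression Console and limma beside RMA, without versions. Genes were named from the platform annotation, where 23521 of 33793 probe sets had 1 symbol. The probe set with the highest mean was kept, which left 22180 genes.

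Both genotypes were fitted with limma 3.58.1 (lmFit, eBayes; R 4.3.3), and two-sided p-values were adjusted by Benjamini-Hochberg across the whole table (threshold 0.05). On simulated data for this comparison, with 22180 genes, the fit recovered 51 of 100 genes changed by 1 and 91 of 100 changed by 2. It also called 4 of 21980 unchanged genes. The simulated noise was independent and, for each gene, equally wide in all arrays. The real arrays had weights from 0.20 to 4.95, so these shares check the fit and do not give its power on these tumours. The members, the 14 lists and the tests were chosen with earlier results of these data known. Of 206 list entries, 183 matched a measured gene. Named genes were the members, Srgn and the 3 genes nearest each member of range 3 or more. For each list they were its first gene, the 2 with the widest range and the 2 with the smallest limma p. Upstream sequences are from RefSeq (GRCm38.p6), which held all 10 members. With 3 arrays per genotype, their number limits the precision. Alternatives were a filter on dim genes (mean under 6.09), a further quantile normalization, centring on brighter genes, means of probe sets, trend and robust variance, array weights, other heights for a high value and leaving out each tumour.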

Additional observations from a re-analysis of the deposited data

How the results depend on the processing

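The number of genes called by limma over all genes ran from 0 to 1 when each tumour was left out, was 0 under the other fits, and was 469 at an unadjusted p under 0.05. The 1 gene, without SG-/- replicate 2, was Bpifa2, a member chosen on these values, and leaving out that tumour removes its low SG-/- value, so this is no test of it. The 0 called list genes stayed 0 under all alternatives run. With array weights, 3 members were at least 1 higher (0.419% of all genes under that fit) and 2 at least 1 lower (0.162%), and Dcpp1 turned to -2.03. When each tumour was left out, 5 to 6 members were at least 1 higher (0.225% to 0.455% of all genes) and 1 to 2 at least 1 lower (0.104% to 0.352%), with 2 lower without SG+/- replicate 1. The number of members called high depends on the height asked for. At 1 above the lowest array, SG-/- replicates 1 to 3 had 8, 4 and 8 (3.34%, 4.02% and 9.5% of all genes). SG+/- replicates 1 to 3 then had 3, 5 and 5 (1.93%, 7.03% and 5.21%). At 3 above the lowest array, SG-/- replicates 1 to 3 had 5, 2 and 6 (0.0676%, 0.0316% and 0.361%). SG+/- replicates 1 to 3 then had 0, 2 and 2 (0.0225%, 0.117% and 0.0361%). At 2 above the median array, SG-/- replicates 1 to 3 had 5, 1 and 4 (0.0676%, 0.0225% and 0.0721%). SG+/- replicates 1 to 3 then had 0, 2 and 0 (0.0180%, 0.0496% and 0.00451%). Srgn differed by between -1.60 and -1.39 over the alternatives run, and the filter on dim genes removes it. A further quantile normalization changed the direction of no member's difference. Means of probe sets and the variance model could not change it, since each member has 1 probe set and that model leaves means unchanged. Centring shifts the difference of every gene alike, and Dcpp3, the member nearest to 0, went from -0.076 to -0.069. No paired analysis was possible because the replicate numbers only name samples in accession order and the labels pair no mice. Values near or under the level of silent genes limit Smr2, and the low arrays of Bpifa2, Smr3a and Amy1. They also limit Amy2b, Dmbt1, Klk1b22 and the neighbours Cabs1, Gm7714, Ambn, Prss21, Sbp, Sval1, Sval2, Bpifa6 and Bpifa3.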
